A study of Mus musculus with 15 samples.

Results

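The genes described here are the 4 AMPA receptor subunit genes (*Gria1*, *Gria2*, *Gria3* and *Gria4*) and the 6 genes of the transmembrane AMPA receptor regulatory proteins, or TARPs (*Cacng2*, *Cacng3*, *Cacng4*, *Cacng5*, *Cacng7* and *Cacng8*). They were chosen by name, as the gene rows whose Ensembl identifiers carry these symbols in GENCODE M21, and make up 10 of the 38561 gene rows. Of these 10, 9 had at least 1 count and 8 passed the filter on low counts and were tested. The study captured Purkinje cells (PCs), the output neurons of the cerebellar cortex, by laser from sections of male C57/BL6 mouse cerebellum and sequenced their RNA at postnatal day 0 (P0), P4, P8, P14 and P21. There were 3 biological replicates at each time point and 15 samples in all from a single strain, which the sample labels spell C56/BL6. At P4 and later single PC somata were collected, whereas at P0 clusters of PCs were cut out because single cells were hard to isolate, so the way of collection and the P0 age cannot be told apart.

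AMPA receptors are glutamate-gated cation channels built from 4 subunits, and they carry most fast excitatory transmission, in PCs at the parallel fibre and climbing fibre synapses. The GluA2 subunit, encoded by *Gria2*, makes the channel nearly impermeable to calcium once its transcript has been edited at the Q/R site, where a glutamine codon is read as arginine. TARPs are membrane proteins that travel with the receptor. Those called type I hold it at synapses through scaffold proteins and slow its gating. *Cacng2* encodes stargazin (γ-2), the TARP whose loss causes ataxia in the stargazer mouse, *Cacng3*, *Cacng4* and *Cacng8* encode the other type I TARPs, and *Cacng5* and *Cacng7* encode the type II TARPs.

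The sequences that set these proteins apart are shown first, from GENCODE M21 on GRCm38, each on the strand of its gene. In the coding sequence around the Q/R site of the subunits, printed over 51 bases, the capitals mark the Q/R codon, which is a glutamine codon in all 4 reference transcripts. The codon lies at chr11:57243094-57243096 on the plus strand in *Gria1*, at chr3:80706911-80706913 on the minus strand in *Gria2*, at chrX:41610265-41610267 on the plus strand in *Gria3* and at chr9:4464137-4464139 on the minus strand in *Gria4*. It is in exon 11 of the first 3 genes and in exon 12 of *Gria4*, and the window runs on into the next exon.
Gria1: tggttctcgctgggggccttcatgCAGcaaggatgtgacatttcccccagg
Gria2: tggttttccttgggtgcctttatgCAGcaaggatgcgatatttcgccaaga
Gria3: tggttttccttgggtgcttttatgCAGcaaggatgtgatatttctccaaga
Gria4: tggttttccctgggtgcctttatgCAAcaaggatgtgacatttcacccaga
Over these 51 bases *Gria2* and *Gria3* differed at 3 positions, and *Gria1* and *Gria2* at 10. The files hold counts per gene and no bases, so editing at this codon and the flip and flop splice forms were not measured.

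The last 36 coding bases of the TARPs, with the last 4 codons in capitals, show the end by which type I TARPs bind the PDZ domains of PSD-95 and its relatives. The lines give the 4 type I genes and then the 2 type II genes.
Cacng2: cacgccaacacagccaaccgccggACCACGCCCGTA
Cacng3: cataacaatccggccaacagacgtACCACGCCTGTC
Cacng4: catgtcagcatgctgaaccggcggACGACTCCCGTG
Cacng8: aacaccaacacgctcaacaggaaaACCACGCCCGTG
Cacng5: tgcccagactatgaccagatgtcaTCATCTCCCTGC
Cacng7: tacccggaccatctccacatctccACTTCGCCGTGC
These bases end at the stop codon, at chr15:77995152-77995187 on the minus strand for *Cacng2*, chr7:122768808-122768843 on the plus strand for *Cacng3*, chr11:107734783-107734818 on the minus strand for *Cacng4* and chr7:3415567-3415602 on the plus strand for *Cacng8*. Those of *Cacng5* lie at chr11:107877355-107877390 on the minus strand and those of *Cacng7* at chr7:3366910-3366945 on the plus strand.

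Counts on genes ranged from 3409371 to 7814951 per sample. In CPM, counts divided by the TMM-scaled library size, the summed level of 6 PC markers was 5340 ± 737 at P0 and 42941 ± 5287 at P21 (mean ± SD, n = 3, here and for all levels below). The summed level of 8 Bergmann glia and astrocyte markers was 4608 ± 864 CPM at P0, 7282 ± 1918 at P4, 9102 ± 820 at P8, then 6233 ± 218 by P14 and 3651 ± 702 by P21, and none of the 8 was at 0 in all samples of a time point. The sum of 5 granule neuron markers was 298 ± 58.2, 392 ± 122, 663 ± 173, 755 ± 404 and 446 ± 164 CPM in order of age, with *Cbln3* at 0 in all P4 samples. That of 5 oligodendrocyte markers was 22.4 ± 11.8 CPM at P0 and 569 ± 241 at P21, with *Mag* and *Mobp* at 0 in all P0 samples, and the marker sums of interneurons, oligodendrocyte precursors, microglia and vascular cells had means between 3.43 and 83.2 CPM. The trends of the glial markers were mixed, with *Slc1a3*, *S100b* and *Hopx* rising and *Fabp7* and *Aldh1l1* falling. In captured material of this kind, fewer cells of a type and less RNA per cell cannot be told apart. Levels of the members are given as RPKM, CPM on the TMM-scaled library size divided by summed exon length in kilobases. It is used below to set different genes side by side, and their order can change with the length chosen. Changes with age were tested with edgeR's quasi-likelihood test, as a slope in log2 units per postnatal day, as any difference among the 5 time points, and as steps between time points, with Benjamini-Hochberg adjustment over 14293 genes and a threshold of 0.05. For the time points and steps the p-values measure the spread between the replicate samples. For the slope they also take in how far the time points depart from a straight line. The p-values of the shares below come from shuffling the 15 samples over days.

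Of the 10 members, *Gria1*, *Gria2* and *Gria3* rose with postnatal day and *Cacng3* and *Cacng4* fell, while *Gria4*, *Cacng2* and *Cacng5* did not pass the test of the trend. The 3 rising members compare with 12.1% of all genes tested that rose, and the 2 falling members with 14.1% that fell. With the time point as a factor, *Gria2*, *Gria3*, *Gria4* and *Cacng4* passed, 4 of the members against a background of 19.3%. Between P0 and P21, *Gria2*, *Gria3* and *Cacng2* rose (12.2% of all genes) and *Cacng4* fell (10.6% of all genes). The median slope of the 8 tested members was 0.028 log2 units per day, and that of all genes -0.0077.

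The scale touched the small changes. The TMM factors fell from between 1.11 and 1.13 at P0 to between 0.851 and 0.893 at P21. The median log2 difference of all genes between P0 and P21 was -0.11 on the TMM scale and -0.46 with library totals as the only scale, an alternative chosen after seeing the data. With library totals the calls of the trend over all genes split into 1230 rising and 2874 falling, against 1729 and 2021 with TMM. Other choices tilted the split the other way, to 2238 rising and 1807 falling with limma-voom, where the median difference of all genes between P0 and P21 was 0.065, and to 1855 rising and 1476 falling on the log2(day + 1) scale. With library totals *Gria3* still rose and *Cacng3* and *Cacng4* still fell. There the differences from P0 to P21 of *Gria1* (0.22), *Gria2* (0.34) and *Cacng2* (0.36) lay above the median of -0.46 but did not pass the test.

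**Figure D1:**
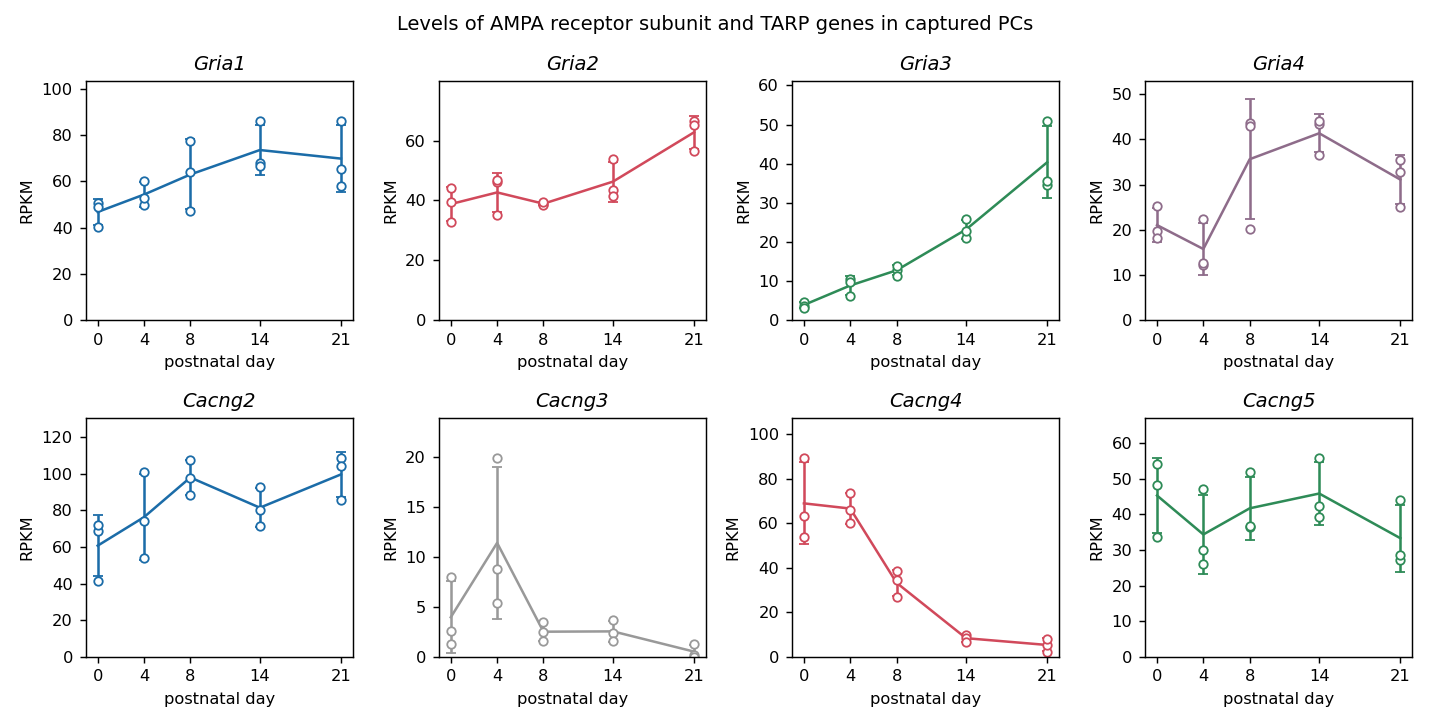
RPKM (vertical axis) against postnatal day for the 4 *Gria* genes (top row) and the 4 TARP genes that passed the filter on low counts (bottom row). Open circles are the 15 samples, lines join the means and bars are SD (n = 3, cut at 0), with *Gria3* climbing from 3.86 to 40.3 and *Cacng4* falling from 68.9 to 5.31.

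*Gria3*, which encodes GluA3, showed the largest change among the subunits. Its RPKM values were 4.72, 3.70 and 3.17 at P0, 10.6, 9.74 and 6.20 at P4, and 12.9, 13.9 and 11.4 at P8. They were 20.9, 22.8 and 25.8 at P14 and 34.5, 50.9 and 35.6 at P21. Every sample of a time point lay above every sample of the time point before it. The mean rose from 3.86 ± 0.790 at P0 to 8.85 ± 2.33, 12.7 ± 1.27, 23.2 ± 2.49 and 40.3 ± 9.19 at P21. The slope was 0.15 log2 units per day (SE 0.012, adjusted p = 6.92e-08 with edgeR's quasi-likelihood test), and the level at P21 was 10.4-fold that at P0 (log2 difference 3.38, SE 0.26, adjusted p = 1.13e-07). *Gria3* (chrX:41400854-41678601, plus strand) passed both tests under each alternative processing tried.

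Among the single steps, *Gria3* rose from P0 to P4 by 1.19 on the log2 scale (SE 0.24, edgeR adjusted p = 0.0168), the only member called in this step, in which 1.74% of all genes rose. The call of this step was lost with limma-voom (adjusted p = 0.0998) and without P0 replicate 2 (0.0516), P0 replicate 3 (0.0663), P4 replicate 1 (0.0827) or P4 replicate 2 (0.0529). The later steps of *Gria3* were 0.53 (SE 0.24) from P4 to P8, 0.86 (SE 0.24, edgeR adjusted p = 0.0672) from P8 to P14 and 0.80 (SE 0.24, edgeR adjusted p = 0.323) from P14 to P21. None of these steps passed the test on its own, although the groups did not overlap.

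*Gria2*, which encodes GluA2, had overlapping values at P0, P4 and P8 and was highest at P21. In RPKM it measured 39.5, 44.2 and 32.8 at P0, 46.2, 35.2 and 46.7 at P4, and 38.9, 38.4 and 39.4 at P8. They were 43.5, 41.4 and 53.9 at P14 and 66.6, 65.3 and 56.4 at P21. All 3 P21 samples lay above all samples of the earlier time points, and of the neighbouring earlier time points P8 and P14 did not overlap. The log2 difference from P0 to P21 was 0.69 (SE 0.17, edgeR adjusted p = 0.00588), a 1.62-fold rise, and the slope was 0.031 per day (SE 0.0079, edgeR adjusted p = 0.00635). The step from P14 to P21 was 0.44 (SE 0.16), with an unadjusted p of 0.0171 and an edgeR adjusted p of 0.545. The trend was lost with library totals (adjusted p = 0.215) and on the log2(day + 1) scale (0.0593), and the call over time points was lost with library totals (0.313), without P21 replicate 1 (0.0938) and without P21 replicate 2 (0.0920). *Gria2* lies at chr3:80681450-80802835 on the minus strand.

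*Gria1*, which encodes GluA1, had a small slope and a wide spread between replicates. Its RPKM values were 40.4, 50.7 and 49.1 at P0, 49.5, 60.3 and 52.9 at P4, and 64.0, 47.3 and 77.5 at P8. They were 86.0, 67.8 and 66.7 at P14 and 65.1, 58.1 and 86.1 at P21. All neighbouring time points overlapped, while the 3 P0 samples lay below the 6 samples of P14 and P21. The slope was 0.029 per day (SE 0.0096, edgeR adjusted p = 0.0308), and the log2 difference from P0 to P21 was 0.58 (SE 0.21, edgeR adjusted p = 0.0555). The trend was not called with library totals (0.375) or without the P0 samples (0.208). It was also lost without P0 replicate 1 (0.0859), P0 replicate 2 (0.0518), P0 replicate 3 (0.0619), P4 replicate 1 (0.0542), P4 replicate 3 (0.0510) or P21 replicate 3 (0.10), all adjusted p-values. *Gria1* lies at chr11:57011387-57330244 on the plus strand.

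*Gria4*, which encodes GluA4, had a course of its own, lowest at P4 and highest at P14. The samples held 19.6, 25.3 and 18.2 at P0, 22.3, 12.2 and 12.7 at P4, and 43.7, 20.2 and 43.0 RPKM at P8. They were 43.4, 36.6 and 44.1 at P14 and 35.5, 25.0 and 32.9 at P21. The P4 and P8 samples overlapped only through P4 replicate 1 and P8 replicate 2, and the 3 P14 samples lay above all 6 samples of P0 and P4. The time points differed (edgeR adjusted p = 0.0137, and 0.0529 without P4 replicate 3), while the slope of 0.045 per day (SE 0.018) did not pass (edgeR adjusted p = 0.0797). The step from P4 to P8 was 1.18 (SE 0.30), with an unadjusted p of 0.00117 and an edgeR adjusted p of 0.0743. Bergmann glia are known to express *Gria1* and *Gria4* and little *Gria2*. The summed glial marker level was highest at P8 and lowest at P21, as given above. The summed granule neuron markers had their highest mean at P14, as *Gria4* had, but a median of 569 CPM there against 698 at P8. The summed interneuron markers also had their highest mean at P14 (83.2 ± 38.0 CPM). The part of these cell types in the values of *Gria1* and *Gria4* was not tested. *Gria4* lies at chr9:4417896-4796234 on the minus strand.

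Set side by side per length, *Gria1* had the highest mean at every age and *Gria3* the lowest from P0 to P14. *Gria1* and *Gria2* overlapped at P0 and at P21 and were apart at P4, P8 and P14, and *Gria2* and *Gria4* overlapped at P8 and P14. At P21 the order was *Gria1* at 69.8 ± 14.5 RPKM, *Gria2* at 62.8 ± 5.55, *Gria3* at 40.3 ± 9.19 and *Gria4* at 31.1 ± 5.44, in which *Gria2* and *Gria3* did not overlap and *Gria3* and *Gria4* did. The place of *Gria2* depended on the length used. Its summed exons span 15548 bases, against 10371 for its longest protein-coding transcript. Per coding length *Gria2* had the highest mean at all 5 ages, and per longest transcript it was highest at P0, P4 and P21 and *Gria1* at P8 and P14.

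Within the *Gria* sum the composition moved towards *Gria3*. *Gria3* made up 3.53% ± 0.868 of the summed *Gria* RPKM at P0, 7.26% ± 1.75 at P4, 8.78% ± 2.55 at P8, then 12.6% ± 1.59 by P14 and 19.8% ± 4.94 by P21. Its share rose with day over the 15 samples (Pearson's r = 0.918, permutation p = 1e-05, which is the smallest that 100000 permutations can give, and Spearman's rho = 0.927). After Benjamini-Hochberg adjustment over the 9 shares tested this permutation p was 3.00e-05. Without P21 replicates 1 and 2 r was 0.935. The P21 samples were the farthest from the median day, all equally far, and listing order picked these 2. Per coding length the *Gria3* share was 3.68% ± 0.797 at P0 and 20.1% ± 4.24 at P21. The ratio of *Gria3* to *Gria2* was 0.10 ± 0.018 at P0 and 0.643 ± 0.131 at P21.

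*Gria1* made up 42.4% ± 4.59 of the sum at P0 and 34.1% ± 6.03 at P21, with ranges that overlapped. Its r with day was -0.588 (permutation p = 0.0208, adjusted 0.0468) and its rho -0.469 (permutation p = 0.0833, adjusted 0.150). Without P21 replicates 1 and 2 r was -0.285. Those samples, picked by listing order, had the lowest *Gria1* shares at P21, 32.3% and 29.1% against 40.8% in replicate 3. No conclusion is drawn from this r. *Gria2* made up 35.1% ± 3.10 at P0, 25.1% ± 2.96 at P14 and 30.8% ± 3.55 at P21 (r = -0.425, rho = -0.436, adjusted permutation p = 0.172 for r). *Gria4* made up 19.0% ± 1.41 at P0, 12.8% ± 3.94 at P4, 23.1% ± 5.52 at P8, then 22.4% ± 0.727 by P14 and 15.2% ± 2.53 by P21. Its share had no linear relation with day (r = 0.00030, rho = 0.011, adjusted permutation p = 0.999 for r). The size of these 3 shares depended on the length used. Per coding length *Gria2* made up 57.3% ± 3.14 at P0, 43.6% ± 3.49 at P14 and 49.1% ± 3.67 at P21. *Gria1* then made up 26.7% ± 3.82 at P0 and 21.03% ± 4.78 at P21, and *Gria4* 12.4% ± 0.786 and 9.73% ± 1.81.

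**Figure D2:**
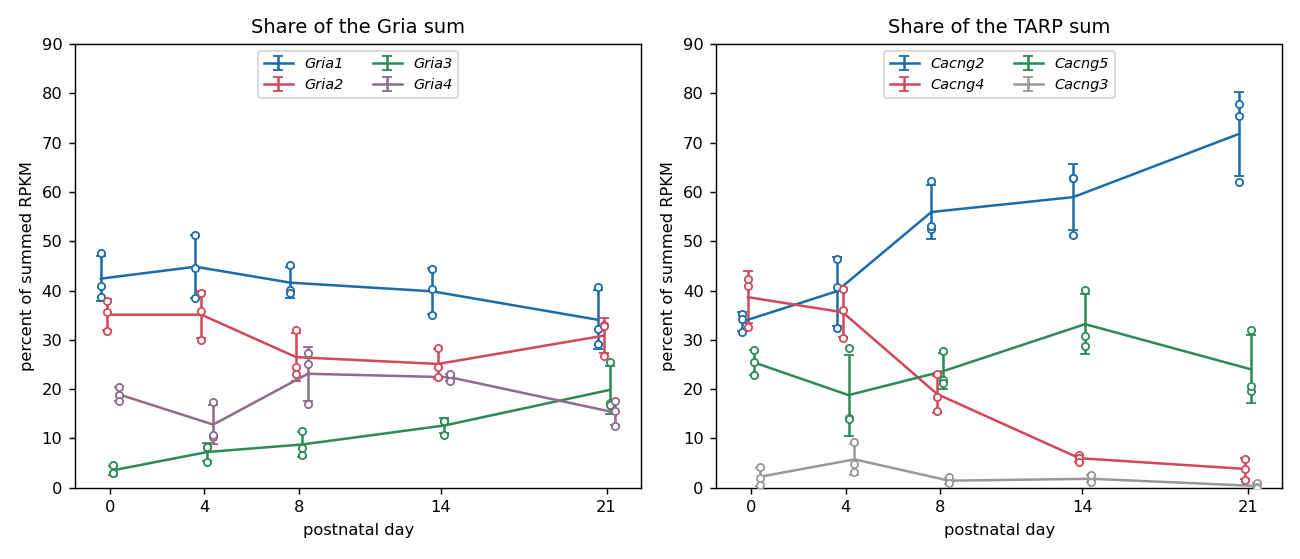
Share of each gene in the summed RPKM of the *Gria* genes (left) and of the TARP genes (right), in percent, against postnatal day. Circles are samples, shifted slightly sideways by gene, lines join the means and bars are SD (n = 3, cut at 0), with *Gria3* rising from 3.53% to 19.8% and *Cacng2* and *Cacng4* parting from 33.7% and 38.7% at P0 to 71.8% and 3.83% at P21.

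Among the TARPs, *Cacng4* (γ-4) fell most. Its RPKM values were 63.3, 89.5 and 53.9 at P0, 73.6, 66.1 and 60.0 at P4, and 34.5, 38.4 and 26.8 at P8. They were 9.94, 8.41 and 6.71 at P14 and 2.33, 5.39 and 8.20 at P21. The P0 and P4 samples overlapped, P8 lay below both and above P14, and P14 and P21 overlapped. The slope was -0.20 per day (SE 0.020, edgeR adjusted p = 7.17e-07), and the level at P21 was 12.7-fold lower than at P0 (log2 difference -3.67, SE 0.37, edgeR adjusted p = 2.13e-06). Both calls held under each alternative tried.

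The fall of *Cacng4* was steepest between P8 and P14, by 1.99 on the log2 scale (SE 0.34, edgeR adjusted p = 0.00470), and it was the only member called in that step, in which 1.38% of all genes fell. The step from P4 to P8 was -1.0 (SE 0.33, unadjusted p = 0.00811, edgeR adjusted p = 0.210) and that from P14 to P21 -0.63 (SE 0.34). Between P4 and P8 no member passed edgeR's test (1.13% of all genes did), with 3 members at an unadjusted p under 0.05 (11.8% of all genes) and 2 called by limma-voom (2.17% of all genes). Between P14 and P21 again 0 members passed (0.329% of all genes), with 2 at an unadjusted p under 0.05 (7.02% of all genes) and 0 called by limma-voom (0.371% of all genes). *Cacng4* lies at chr11:107732357-107794557 on the minus strand.

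*Cacng2*, the stargazin gene (chr15:77991748-78120028, minus strand), was the TARP with the highest mean from P4 on. In RPKM it measured 68.6, 72.2 and 41.5 at P0, 74.2, 101 and 54.1 at P4, and 97.9, 88.7 and 108 at P8. They were 92.9, 71.5 and 80.2 at P14 and 109, 105 and 85.7 at P21. The P21 samples lay above the P0 samples and overlapped those of P4, P8 and P14. The difference from P0 to P21 was 0.71 on the log2 scale (SE 0.24, edgeR adjusted p = 0.0393), but it was called in only 10 of 21 alternatives, with adjusted p up to 0.261, and the slope of 0.027 per day did not pass (SE 0.011, edgeR adjusted p = 0.0945). The alternatives without the call included library totals (0.261), DESeq2's size factors (0.0515), and those without P0 replicate 1 (0.0569), P0 replicate 3 (0.178), P4 replicate 1 (0.0588), any P8 replicate (0.0604 to 0.0634), P14 replicate 3 (0.0521), P21 replicate 1 (0.116) or P21 replicate 2 (0.104). An antisense gene, *A730060N03Rik*, shares 323 exon bases with *Cacng2* and had 509 counts over the 15 samples. The strand setting of the counting is not given in the sources used here.

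*Cacng5* (γ-5, chr11:107874605-107915055, minus strand) was called in none of the tests run. Its mean RPKM was 45.3 ± 10.6 at P0, 34.4 ± 11.2 at P4, 41.7 ± 8.85 at P8, then 45.9 ± 8.90 by P14 and 33.3 ± 9.41 by P21, and all neighbouring time points overlapped. The slope was -0.0098 per day (SE 0.013, edgeR adjusted p = 0.639) and the log2 difference from P0 to P21 -0.44 (SE 0.28, edgeR adjusted p = 0.290). γ-5 is known from Bergmann glia, whose marker sums are given above, and their part in these counts was not tested.

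*Cacng3* (γ-3, chr7:122670492-122769393, plus strand) was low and variable. Its RPKM values were 8.03, 1.29 and 2.55 at P0, 8.83, 19.9 and 5.43 at P4, and 2.47, 3.50 and 1.56 at P8. They were 2.39, 3.66 and 1.59 at P14 and 1.32, 0.229 and 0 at P21, where the sample without a count allows up to 0.173 RPKM (3 counts, counting error only). The P21 samples lay below all others except P0 replicate 2, which at 1.29 was below P21 replicate 1. The slope was -0.18 per day (SE 0.059, edgeR adjusted p = 0.0317). It was not called with limma-voom (0.124) or log2(day + 1) (0.265), nor without P4 replicate 2 (0.0752), P14 replicate 3 (0.0507), P21 replicate 2 (0.0873) or P21 replicate 3 (0.0546).

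*Cacng7* (γ-7, chr7:3332955-3368221) had 2 counts in all, 1 in each of P14 replicates 2 and 3, and *Cacng8* (γ-8, chr7:3390683-3415648) had 0 in all 15 samples. Both are on the plus strand, and neither passed the filter on low counts. The 3-count floor of *Cacng7* was between 0.159 and 0.410 RPKM per sample, and that of *Cacng8* between 0.166 and 0.427. γ-7 is a TARP described in PCs. Low counts were not limited to these genes on this stretch of chromosome 7. Over the 15 samples *Myadm* had 2 counts, *AU018091*, *Nlrp12*, *Cacng6* and *Tarm1* had 0 and *Oscar* had 31, while *Ndufa3*, farther along, had 2117 to 5737 counts per sample. Of the 50-base words in the M21 transcripts, 0% of those of *Cacng7* and 1.83% of those of *Cacng8* also occurred in another gene. The cause of the few counts on this stretch was not tested, and the values of *Cacng7* and *Cacng8* are not read as absence of their transcripts. The non-TARP γ subunit gene *Cacng1* had 14 counts in all.

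Within the TARP sum, *Cacng2* rose from 33.7% ± 1.94 at P0 to 39.9% ± 7.03, 55.9% ± 5.51, 58.9% ± 6.72 and 71.8% ± 8.49 at P21 (r = 0.909, rho = 0.884, adjusted permutation p = 3.00e-05 for r). *Cacng4* went from 38.7% ± 5.27 to 35.6% ± 4.93, 19.0% ± 3.77, 6.0% ± 0.736 and 3.83% ± 2.13 (r = -0.929, rho = -0.949, adjusted permutation p = 3.00e-05 for r). Without P21 replicates 1 and 2 r was 0.850 for *Cacng2* and -0.919 for *Cacng4*. As parts of the same sum these 2 shares are tied, and a fall of *Cacng4* by itself raises the share of *Cacng2*. The slope of the *Cacng2* level did not pass (0.027 per day, edgeR adjusted p = 0.0945). *Cacng5* held 25.4% ± 2.53 at P0 and 24.03% ± 6.91 at P21 (r = 0.233, rho = 0.196, adjusted permutation p = 0.513), and *Cacng3* 2.23% ± 1.78 and 0.370% ± 0.505 (r = -0.491, rho = -0.546, adjusted permutation p = 0.0951 for r). The shares leave *Cacng7* and *Cacng8* at or near 0. In order of level, *Cacng4*, *Cacng2* and *Cacng5* overlapped in that order at P0, and at P21 *Cacng2*, *Cacng5*, *Cacng4* and *Cacng3* followed each other without overlap. Per coding length *Cacng2* was already ahead of *Cacng4* at P0, with 41.9% ± 2.05 against 30.8% ± 4.43 of the sum.

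The summed RPKM of the *Gria* genes was 110 ± 11.7 at P0 and 204 ± 6.11 at P21. That of the TARPs was 179 ± 42.0 at P0 and 139 ± 0.930 at P21. The TARP sum divided by the *Gria* sum was 1.61 ± 0.304 at P0, 1.56 ± 0.252 at P4, 1.19 ± 0.194 at P8, then 0.754 ± 0.0793 by P14 and 0.681 ± 0.0230 by P21. All P14 and P21 samples lay below all earlier ones, from 0.655 to 0.828 against 1.01 to 1.86. The size of the sums and of their ratio depends on the length used, here summed exons. The ratio therefore does not tell which of the 2 families was more abundant at an age. The sums were not tested, and they miss any *Cacng7* and *Cacng8* transcripts that were not counted.

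**Figure D3:**
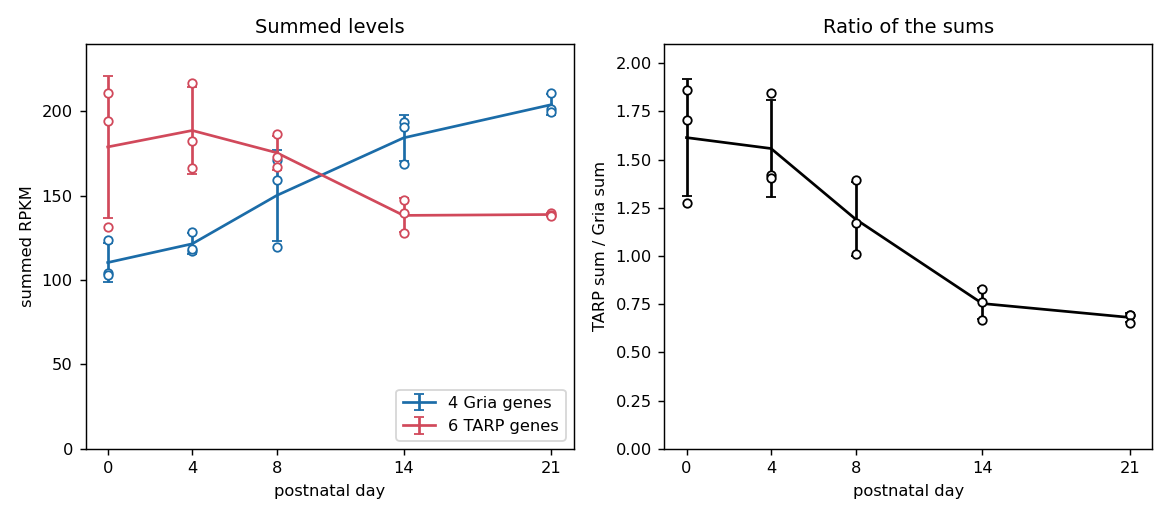
Summed RPKM of the 4 *Gria* genes and of the 6 TARP genes (left) and the TARP sum divided by the *Gria* sum (right), against postnatal day. Circles are samples, lines join the means and bars are SD (n = 3). The ratio is 1.61 at P0 and 0.681 at P21 per summed exon length, and its size depends on the length used.

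Other proteins that join native AMPA receptors or assist their assembly were examined as a list of 24 genes, 22 of which could be tested. With day 9 rose and 4 fell, against the 12.1% and 14.1% of all genes, and the median slope was 0.080 per day, against -0.0077 for all genes. The rising genes with the smallest p were *Shisa6*, a partner that keeps receptors from desensitizing, *Abhd12*, a hydrolase found in receptor complexes, and *Syndig1*, a synaptic membrane protein. *Shisa6* went from 101 ± 57.1 CPM at P0 to 811 ± 99.8 at P21 (slope 0.16, SE 0.017, edgeR adjusted p = 2.26e-06). *Abhd12* went from 39.8 ± 10.9 to 213 ± 20.9 CPM (slope 0.11, SE 0.013, edgeR adjusted p = 2.39e-06), and *Syndig1* from 12.2 ± 7.29 to 608 ± 26.8 CPM (slope 0.27, SE 0.036, edgeR adjusted p = 1.65e-05). The falling genes with the smallest p were *Shisa7*, *Olfm2* and *Gsg1l*, the last of which encodes a claudin-like protein related to the TARPs that slows recovery of the receptor. Their CPM means at P0 and P21 were 46.3 ± 18.1 and 3.70 ± 5.40 for *Shisa7* (slope -0.20), 70.4 ± 30.3 and 3.10 ± 5.08 for *Olfm2* (slope -0.22) and 53.2 ± 75.4 and 1.95 ± 1.79 for *Gsg1l* (slope -0.24). The P0 mean of *Gsg1l* was carried by replicate 2, at 140 CPM against 17.1 and 2.63, and was 9.88 CPM without it, below the P4 mean of 30.8. The slope without that sample was -0.21 (edgeR adjusted p = 0.0392), and with limma-voom it was not called (adjusted p = 0.164). *Shisa8* and *Vwc2l* had too few counts to be tested.

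**Figure D4:**
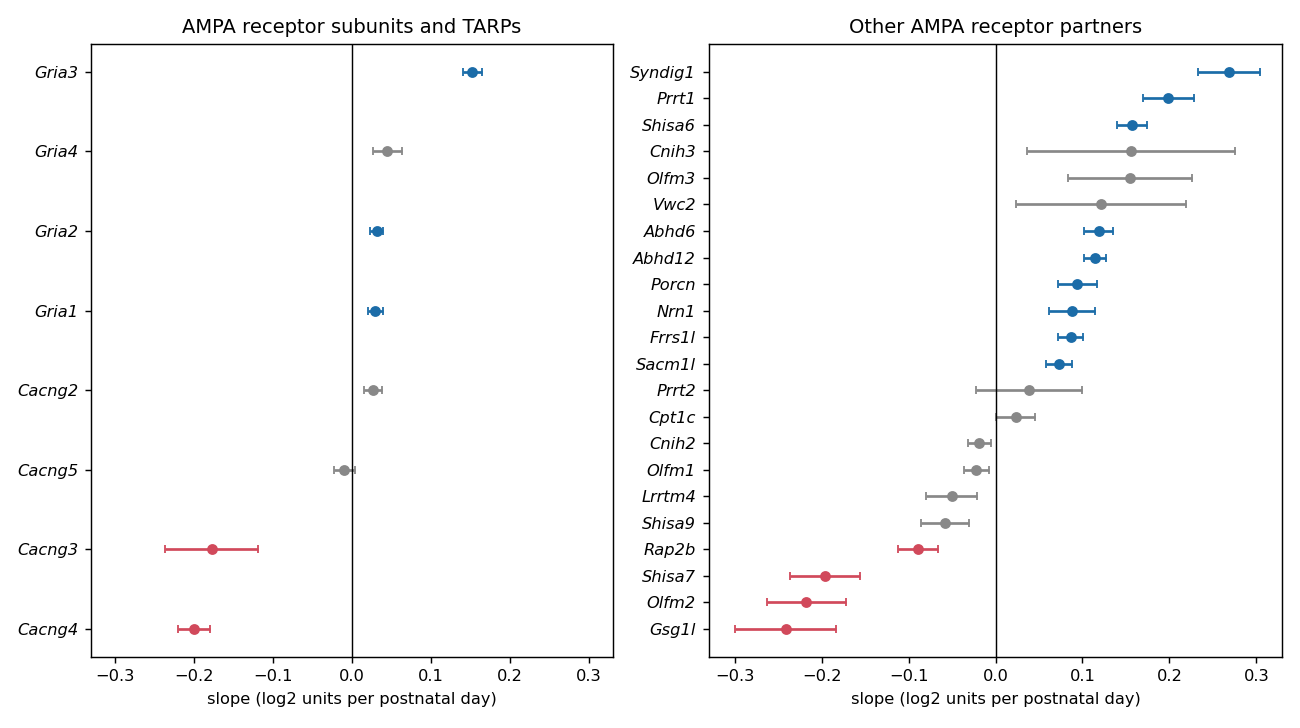
Slope with postnatal day in log2 units per day (horizontal axis) for the 8 tested members (left) and the 22 tested genes of other AMPA receptor partners (right). Points are slopes and bars their SE, blue for rising and red for falling at an adjusted p below 0.05 and grey for the rest, with *Gria3* at 0.15 and *Cacng4* at -0.20 at the ends of the left panel and *Syndig1* at 0.27 and *Gsg1l* at -0.24 at those of the right.

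Of 16 trafficking and scaffold genes, 15 were tested, 4 rose and 1 fell with day, against 12.1% rising and 14.1% falling among all genes. *Nptx1*, which encodes a neuronal pentraxin that clusters AMPA receptors from outside the cell, rose from 8.62 ± 5.56 to 1042 ± 125 CPM (slope 0.36, SE 0.032, edgeR adjusted p = 2.15e-07). Its receptor gene *Nptxr* rose from 108 ± 22.4 to 420 ± 60.1 CPM (slope 0.11, edgeR adjusted p = 2.29e-06), and *Nsg1*, which encodes an endosomal protein of receptor recycling, from 1181 ± 202 to 3631 ± 1158 CPM (slope 0.10, edgeR adjusted p = 3.40e-05). Its relative *Nsg2* fell from 324 ± 62.8 to 92.4 ± 19.5 CPM (slope -0.073, edgeR adjusted p = 0.000548). *Arc* was not tested for lack of counts. Of the 3 RNA editing enzyme genes, *Adarb1*, the enzyme of the *Gria2* Q/R site, rose from 39.2 ± 8.52 to 110 ± 20.2 CPM (slope 0.060, SE 0.015, edgeR adjusted p = 0.00566). *Adarb2*, with no known editing activity, fell (slope -0.16, SE 0.057, edgeR adjusted p = 0.0486), a call kept in only 9 of 24 alternatives. It was lost without any one of the P4, P14 or P21 samples, P8 replicate 2 or P8 replicate 3 (adjusted p from 0.0545 to 0.127). It was also lost with limma-voom (0.139), log2(day + 1) (0.441), no filter (0.0501) and 1 CPM in 3 samples (0.0510). The call of *Adarb1* was lost without the P0 samples (0.107), and *Adar* did not pass. Of 14 other ionotropic glutamate receptor genes, 13 were tested, 4 rose and 3 fell with day, against the same 12.1% and 14.1% of all genes.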

How the data were processed

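The authors trimmed the paired-end reads of each laser-captured PC sample with cutadapt 1.2.1, aligned them with GSNAP to GRCm38/mm10, dropped reads that mapped to more than 1 place and tallied the rest on Ensembl genes with HTSeq 0.5.3p9, and the deposited values are these raw counts, without normalization. The annotation release and the strand setting of the counting are not given in the sources used here. Tallies of reads outside genes (16.7% to 29.8% of the tallied reads) and of ambiguous reads (1.16% to 1.57%) were left out of library sizes and tests.

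Names, positions and lengths came from GENCODE M21, which held 36639 of the 38561 identifiers. All 15 samples were fitted with edgeR 4.0.16 in R 4.3.3 (filterByExpr by time point, TMM, quasi-likelihood F test, Benjamini-Hochberg adjustment at 0.05), and the biological coefficient of variation was 0.705. Alternatives used DESeq2 1.42.0 (size factors and the likelihood ratio test), limma 3.58.1 (voom), no filter, 1 CPM in 3 samples, log2(day + 1), no P0 samples, a replicate block, other lengths, library totals and each sample left out in turn. Shares and correlations used Python 3.11.15, numpy 2.4.6, scipy 1.17.1 and pandas 2.3.3 with two-sided permutation tests over samples, and figures matplotlib 3.10.9. The fits were tested on simulated counts. Replicates differed by a chi-square per gene of 17.4 to 56.5, where sampling noise gives about 1, and were treated as separate libraries.

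Named genes are the 10 members and, from lists of partners, trafficking genes and editing enzymes, up to 3 rising and 3 falling with the smallest p and those not testable, then the 3 genes most like each subunit and *Cacng2*. A few genes that these rules or the map positions select are not reported here. The members and lists were chosen with earlier results of these data known. Intervals and floors cover counting error only.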

Additional observations from a re-analysis of the deposited data

How the results depend on the processing

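The slopes, differences from P0 to P21 and share trends of the members kept their direction in every alternative, except the share of *Gria4*, whose r of about 0 ranged from -0.0998 to 0.161 over the alternatives. With library totals, chosen after seeing the data, 1 member rose in place of 3. With limma-voom 1 member fell in place of 2, and 0 members were called between P0 and P4 (1), 2 between P4 and P8 (0) and 2 between P8 and P14 (1), and with log2(day + 1) 1 fell. The r of the *Gria1* share was -0.455 on counts without length, -0.456 per coding length and -0.427 on log2(day + 1), and none of these passed. Per longest transcript, also chosen after seeing the data, the r of the *Gria2* share was -0.587 and passed, and without P0 that of *Cacng3* was -0.680 and passed. Leaving out each sample in turn gave 2 to 4 rising members, 1 to 2 falling, 3 to 4 by time point, 0 to 1 between P0 and P4, 0 to 1 between P4 and P8, 1 to 2 between P8 and P14 and 3 to 5 between P0 and P21, and r from -0.659 to -0.472 for the *Gria1* share (no longer called in 10 of 15) and from -0.607 to -0.431 for that of *Cacng3*. The cause of these moves was not tested. Same-numbered replicates were not paired (mean correlation of deviations -0.0036, none of 30 above 0.1). With a replicate block 3 members rose and 2 fell as without it, 1723 genes rose and 1911 fell, and 5 members were called between P0 and P21 in place of 4, the added one being *Cacng3* (adjusted p = 0.0449). Counts were few for *Cacng7* and *Cacng8*, with at most 1 in a sample, and ranged from 0 to 428 for *Cacng3*.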

Other observations

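The genes most like each subunit were taken from 9310 protein-coding genes with a mean of at least 10 CPM, by Pearson's r of log2(CPM + 1) over the 15 samples, as a description. All share the same libraries and depth, and a course that rises or falls with age is common among them. For *Gria3* they included *Cox17* (r = 0.990) and *Fkbp2* (0.982), and for *Gria2* they were *Trib1* (0.883), *Fry* (0.881) and *Nmnat2* (0.878). For *Gria1* they were *Pdia3* (0.899), *Tmem184c* (0.896) and *Parp6* (0.879). For *Gria4* they were *Slc1a2* (0.874), the main astrocyte glutamate transporter gene, *Clip3* (0.868) and *Trmt9b* (0.839). For *Cacng2* they were *Shank1* (0.909) and *Shank2* (0.876), which encode postsynaptic scaffolds, and *Atp5g1* (0.856). *Cacng7* had too few counts to be compared. Among the members themselves the highest r was between *Gria2* and *Gria3* (0.727) and the lowest between *Gria3* and *Cacng4* (-0.883).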
